A study of Mus musculus with 9 samples.

Results

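The genes by which neurons make, pack, clear, break down and sense GABA and glycine were examined in the striatum of mouse embryos at E17.5. They comprised 28 genes chosen by name, from the synthetic enzymes to the receptor subunits and the chloride transporters, out of 44886 genes in each count table. All 28 were found, and 25 of them had enough reads to enter the test, together with 16368 genes in all. The libraries came, by their labels, from 9 individual embryos, 3 labelled Control, 3 labelled Islet1Cre;Ebf1fl/- (Islet1Cre cKO below) and 3 labelled Dlx5/6::Cre;Ebf1fl/- (Dlx5/6::Cre cKO below). Each cKO embryo carries 1 floxed and 1 null allele of Ebf1, a transcription factor of striatal projection neurons of the direct pathway (dSPN). The study deleted it to ask how dSPN differentiate and how they come to intermix with projection neurons of the indirect pathway. The comparisons here ask how the GABA and glycine genes differed from control.

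The breeding used Ebf1fl/fl females and Ebf1+/- males that carried either Islet1Cre or Dlx5/6::Cre, and the study used heterozygous embryos as controls, and the exact alleles of each control embryo are not given in the labels. The Islet1Cre driver acts in dSPN and in cholinergic interneurons, and the Dlx5/6::Cre driver in projection neurons of both pathways and in interneurons. The labels give a C57BL/6 background for every embryo, whereas the study's methods place the Islet1Cre line on B6D2F1/J. RNA came from whole striatal tissue, in which fewer cells of a type and less RNA per cell cannot be told apart.

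GABA is the transmitter of striatal projection neurons and of the interneurons among them. It is made from glutamate by the glutamate decarboxylases Gad1 and Gad2, loaded into vesicles together with glycine by one carrier, Slc32a1, and acts on GABA-A receptors, which are chloride channels of 5 subunits, and on GABA-B receptors, which couple to G proteins. In immature neurons chloride is accumulated by Slc12a2 (NKCC1), and as neurons mature Slc12a5 (KCC2) extrudes it, which turns the response to GABA from depolarizing towards inhibitory.

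The genes clearest above control were the GABA-A subunit Gabrg3 and the chloride extruder Slc12a5, the members that edgeR called when both cKO genotypes were averaged against control. Neither was called in either cKO genotype alone, and each call was lost in most fits that left out 1 library. The 250 bases of RefSeq sequence (GRCm38.p6) that precede the annotated starts of Gabrg3 and Slc12a5 are shown because these members passed the averaged test, and because Ebf1 binds DNA. Capitals mark the 8-letter core of the EBF motif, CCCNNGGG, which reads the same on both strands. The Gabrg3 stretch is chr7:57387216-57387465 on the minus strand, and the Slc12a5 stretches, before each of its 2 annotated starts, are chr2:164960596-164960845 and chr2:164967738-164967987 on the plus strand.
Gabrg3: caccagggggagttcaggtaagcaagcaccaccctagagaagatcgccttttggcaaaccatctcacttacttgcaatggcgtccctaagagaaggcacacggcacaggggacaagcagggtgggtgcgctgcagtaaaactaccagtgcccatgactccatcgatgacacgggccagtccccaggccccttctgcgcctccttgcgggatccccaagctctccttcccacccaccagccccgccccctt
Slc12a5, upstream start: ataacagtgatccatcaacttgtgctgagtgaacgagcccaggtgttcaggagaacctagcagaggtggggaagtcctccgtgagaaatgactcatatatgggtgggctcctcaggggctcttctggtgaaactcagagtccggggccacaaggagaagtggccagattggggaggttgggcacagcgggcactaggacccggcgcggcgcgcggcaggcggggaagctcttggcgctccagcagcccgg
Slc12a5, downstream start: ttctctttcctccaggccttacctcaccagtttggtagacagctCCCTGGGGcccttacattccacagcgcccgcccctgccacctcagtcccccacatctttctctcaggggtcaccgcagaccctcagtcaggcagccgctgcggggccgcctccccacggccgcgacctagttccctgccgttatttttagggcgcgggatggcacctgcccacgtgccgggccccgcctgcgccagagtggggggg
The core occurred once in these stretches, starting 206 bases before the downstream start of Slc12a5. The longer motif, the core with T before it and A after it, which also reads the same on both strands, was found in 1 of the 31 member windows of 300 bases (250 before and 50 after a start), that of Gabrg1, and in 0.904% of all 32851 windows. It lies in the 30 bases at chr5:70842568-70842597 on the minus strand, starting 36 bases after the start of Gabrg1, with the full motif in capitals.
Gabrg1: tggtagaagcagcattTCCCTCGGGAaccc
The core was found in 5 of the 31 member windows, those of Gad2, Slc32a1, Slc6a13, Slc12a5 and Gabrg1, and in 13.7% of all windows. Windows were held for 24 of the 28 members, and none for Abat, Gabrd, Glra1 and Slc12a2. A match describes letters only.

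Totals of reads counted on genes ran from 16.5 to 41.5 M per library, the lowest being Islet1Cre cKO replicate 3. The label striatum was checked against 6 markers of striatal projection neurons (among them Bcl11b, Foxp1 and Ppp1r1b), all of which entered the test and whose summed level was 1133 to 1543 TPM (reads per length of exons, scaled to the same sum in each library). The sum was 1281 to 1543 TPM in controls, 1418 to 1468 in Islet1Cre cKO and 1133 to 1434 in Dlx5/6::Cre cKO. The median log2 fold change of the 6 markers was -0.26 in each cKO genotype. At an adjusted p below 0.05 edgeR called 0 of them in Islet1Cre cKO and 1 in Dlx5/6::Cre cKO, against 0.971% and 2.39% of all genes. Reads on Xist and on Y-linked genes occurred together in the libraries Control replicate 3 (12552 on Xist, 307 on 4 Y-linked genes) and Islet1Cre cKO replicate 3 (4062 and 1369), whereas each of the other 7 libraries had at most 4 reads on one or the other. Whether these libraries hold RNA of more than 1 embryo was not tested, and each is counted as 1 embryo as labelled. Control replicate 2 had 4 reads on Xist and 4653 on the Y-linked genes. Control replicate 1, Islet1Cre cKO replicates 1 and 2 and every Dlx5/6::Cre cKO library had 7887 to 28938 reads on Xist. Each of these had at most 4 Y-linked reads. Embryo sex was thus not balanced between the genotypes. Its part was not tested, also for the X-linked members Gabra3, Gabrq, Gabre and Glra2. Reads on Ebf1 do not check the genotype labels, because counts over the whole gene can include exons outside a deleted part. Its log2 fold change was 0.41 in Islet1Cre cKO (adjusted p = 0.599) and 0.33 in Dlx5/6::Cre cKO (adjusted p = 0.399). These are quasi-likelihood tests of edgeR, and p was adjusted over all 16368 genes by the Benjamini-Hochberg method. The labels give each embryo a code that begins with IE (Control 1 and 2 and the 3 Islet1Cre cKO) or D (Control 3 and the 3 Dlx5/6::Cre cKO), which partly separates the genotypes, and what the letters stand for is not given.

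The library Dlx5/6::Cre cKO replicate 1 stood apart. Its summed level of 6 markers of dividing progenitors (such as Mki67 and Top2a) was 294 TPM, against 73.4 to 105 TPM in the other 8 libraries. That of 6 cortical excitatory markers (such as Tbr1 and Neurod6) was 181 TPM, against 31.0 to 92.6 TPM, and that of 6 pallidal and medial ganglionic eminence markers (such as Nkx2-1 and Lhx6) was 681 TPM, against 969 to 1495 TPM. For this last list every Dlx5/6::Cre cKO library (681, 1148 and 969 TPM) lay below every control (1248 to 1495 TPM), while Islet1Cre cKO ranged from 1089 to 1449 TPM. In Dlx5/6::Cre cKO edgeR called none of these 6 markers, against 2.39% of all genes. Their median log2 fold change was -0.25. Dlx5/6::Cre cKO replicate 1 held the lowest value of its group for 22 of the 25 tested members (88.0%), against 42.9% of all genes tested. Control replicate 1 held the lowest value of the controls for 18 of the 25 (72.0%), and for 6554 of the 16368 genes tested. Values without each of these libraries are given beside Aldh5a1, Gabrg3, Gabra3, Gabrg1, Gabrd and Slc12a5, and the part of the other cell types in them was not tested.

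**Figure D1:**
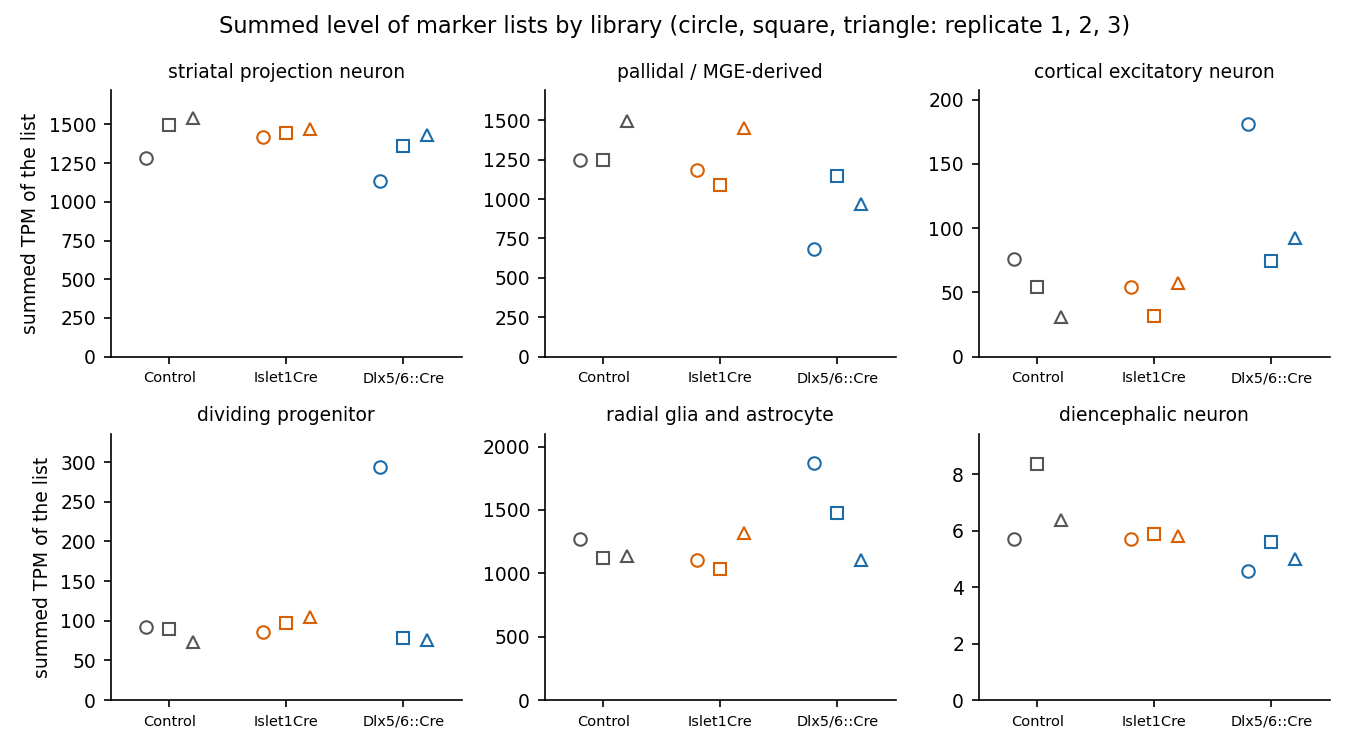
Summed TPM of 6 marker lists (y axis, each panel from 0) in each library, by genotype on the x axis, with circles, squares and triangles for replicates 1, 2 and 3. Dlx5/6::Cre cKO replicate 1 lies at 294 TPM for dividing progenitors and at 181 TPM for cortical excitatory neurons, above the other 8 libraries, and at 681 TPM for pallidal and medial ganglionic eminence derived cells, below them. For this last list every Dlx5/6::Cre cKO library lies below the controls.

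The members spanned a wide range of levels. In controls 6 of the 28 exceeded 100 TPM, 11 lay between 10 and 100, 5 between 1 and 10, and 6 below 1 TPM, while the median over all genes tested was 15.9 TPM. Slc32a1, the vesicular carrier, was the most abundant at 224 ± 33.7 TPM (SD, n = 3), followed by the GABA-B subunit Gabbr1 at 167 ± 17.7, the receptor scaffold Gphn (gephyrin) at 127 ± 17.5, Gad2 at 115 ± 4.96, Gabra5 at 113 ± 22.4 and Gad1 at 111 ± 7.39 TPM. After Slc32a1 and Gabbr1, these neighbours in the order lay within 1 SD of the more variable gene of each pair. Abat, which breaks GABA down, had a mean of 97.5 TPM.

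3 lowly counted members did not enter the test. Slc6a13, a GABA transporter of the meninges and other cells outside neurons, had 5 to 9 reads in every library. Glra1, the glycine receptor alpha subunit of adult spinal cord, had 0 to 2 reads. Gabra6, the subunit of cerebellar granule cells, had 1 read in Dlx5/6::Cre cKO replicate 2 and none in the other 8 libraries, and a count of 0 allows up to 3 reads at these depths. Of the members that were tested, Gabre had 3 to 18 reads and Glra3 had 1 to 34 reads per library, and their intervals were the widest.

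**Figure D2:**
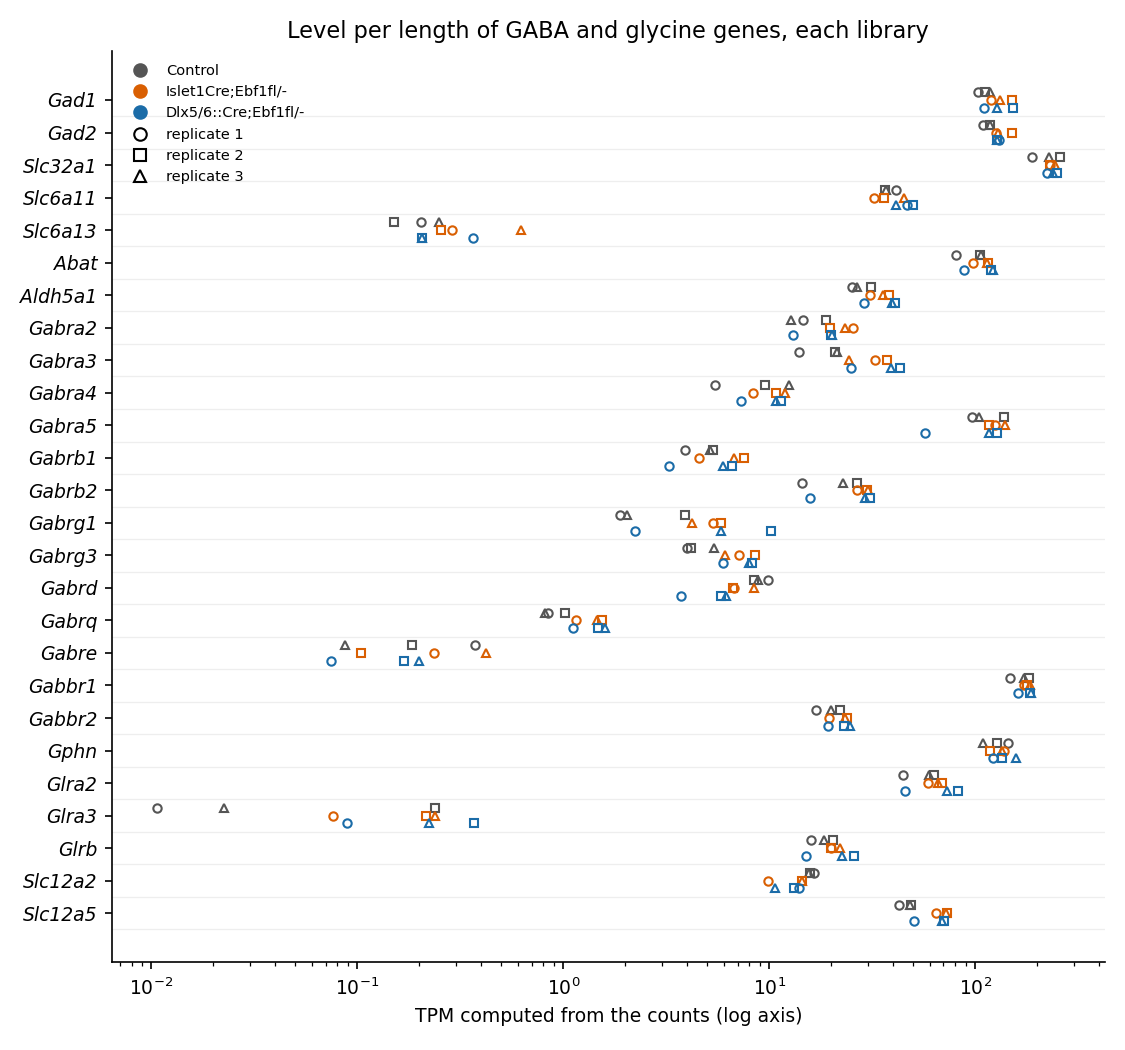
TPM of the 26 members with a mean above 0.1 TPM (x axis, log scale) in each of the 9 libraries, coloured by genotype with the symbol giving the replicate. Slc32a1, Gabbr1, Gphn, Gad2 and Gad1 sit near or above 100 TPM in all genotypes, whereas Slc6a13, Gabre and Glra3 stay under 1 TPM.

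Members differed in how far control embryos lay apart. The highest control was 1.05 times the lowest for Slc12a2 and 1.09 times for Gad2, but 2.09 times for Gabrg1, 2.32 times for Gabra4 and 22.6 times for Glra3. The median of this ratio was 1.33 over the 25 members and 1.21 over all genes tested.

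No member was called in Islet1Cre cKO against control at an adjusted p below 0.05 (edgeR), where 0.971% of all genes tested were called. None was called in Dlx5/6::Cre cKO either, where 2.39% of all genes were called, and none between the cKO genotypes, where edgeR called 0.0% of all genes. When both cKO genotypes were averaged against the same 3 controls, 2 of the 25 members were called, Gabrg3 and Slc12a5, both higher, against 2.76% of all genes in either direction and 1.2% higher. At an unadjusted p below 0.05, 7 members passed in Islet1Cre cKO, against 7.93% of all genes, 6 of them higher and 1 lower (3.97% and 3.96% of all genes). In Dlx5/6::Cre cKO 9 passed, against 15.5% of all genes, 7 higher and 2 lower (7.91% and 7.62%), and on average 10 passed, against 12.8% of all genes, 8 higher and 2 lower (6.05% and 6.73%). By DESeq2's Wald test 2 members were called in Islet1Cre cKO (Gabrg3 and Slc12a5) and 4 in Dlx5/6::Cre cKO (these and Gabra3 and Gabrd). It called 3 on average (Gabra3, Gabrg3 and Slc12a5) and none between the cKO genotypes. DESeq2 also called more of all genes than edgeR in each comparison. It called 395 in Islet1Cre cKO, 860 in Dlx5/6::Cre cKO, 776 on average and 18 between the cKO genotypes.

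Most members had values above control without passing the test. The log2 fold change was above 0 for 22 of the 25 tested members in Islet1Cre cKO, against 49.5% of all genes, and for 21 of the 25 in Dlx5/6::Cre cKO, against 52.3% of all genes, and for 21 on average, against 51.0%. The members' median was 0.18 on the log2 scale in Islet1Cre cKO and 0.21 in Dlx5/6::Cre cKO, whereas the medians over all genes were -0.0016 and 0.011. Both comparisons use the same controls, so that the low values of Control replicate 1 enter both. Every library of Islet1Cre cKO lay above every control for 9 members and below for 2 (7.83% and 7.28% of all genes, 15.1% in either direction), and those of Dlx5/6::Cre cKO above for 6 and below for 2 (9.63% and 11.3%, 20.9% in either direction). All 6 cKO libraries lay above all controls for Gad2, Gabra3, Gabrg3, Gabrq and Slc12a5 (5 of 25, 3.63% of all genes) and below them for Gabrd and Slc12a2 (2 of 25, 4.08% of all genes), where 7.7% of all genes did so in either direction. Between the cKO genotypes every member overlapped, where 10.4% of all genes did not.

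**Figure D3:**
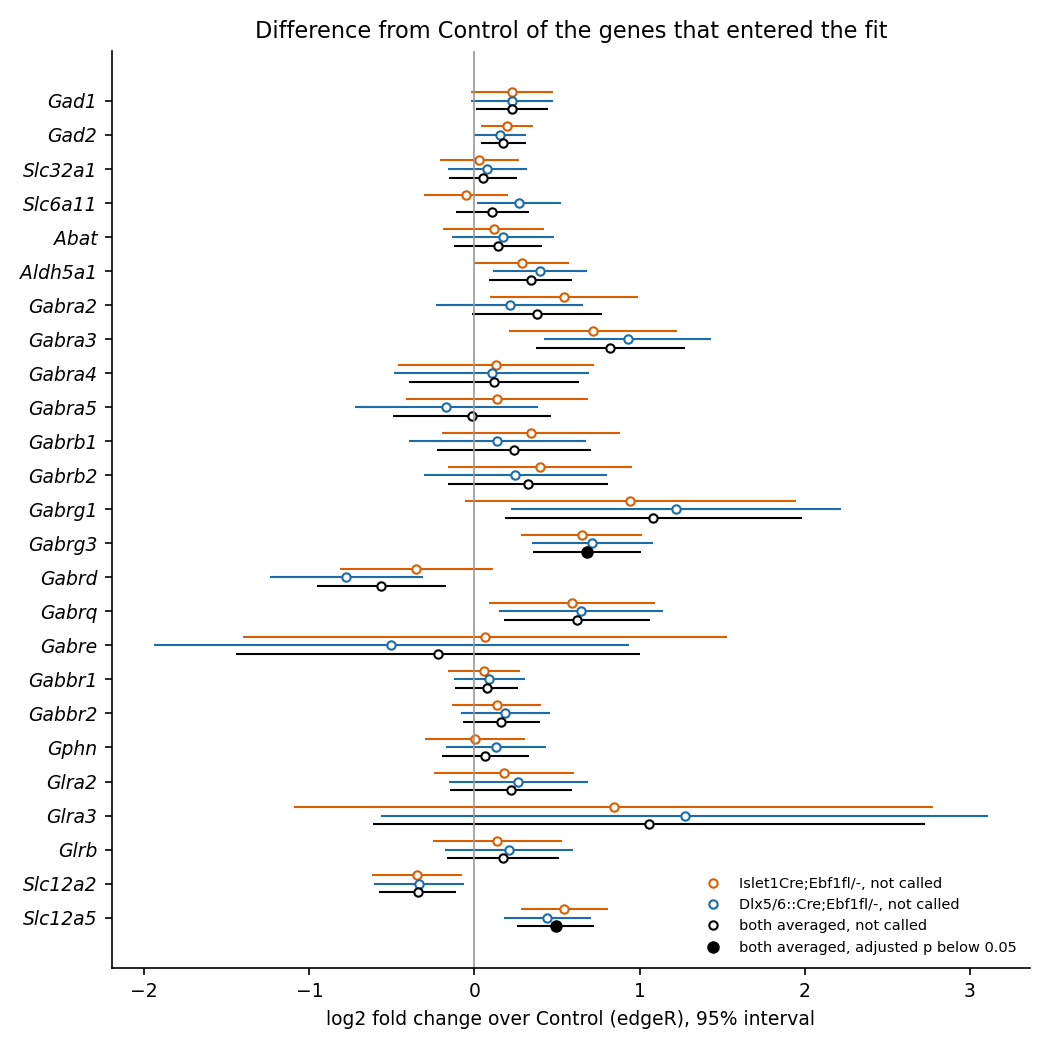
Log2 fold change over control (x axis) with its 95% interval for the 25 tested members, for Islet1Cre cKO, Dlx5/6::Cre cKO and the average of both. Filled points are adjusted p below 0.05, reached by Gabrg3 at 0.68 and Slc12a5 at 0.49 on average, and Gabrd and Slc12a2 are the tested members whose averaged interval lies below 0.

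Among the synthetic enzymes, Gad2, which makes GABA at terminals, was counted 5932, 6471 and 6439 times in controls 1 to 3 after scaling by size factors (normalized counts). It stood at 7230, 7603 and 6783 in Islet1Cre cKO and at 7045, 6848 and 7080 in Dlx5/6::Cre cKO. All 6 cKO libraries were above the controls, by 0.18 on the log2 scale on average (SE 0.062, adjusted p = 0.236). For Gad1, which makes most of the GABA of the cell, normalized counts were 7279, 7942 and 8386 in controls, 8867, 9841 and 8976 in Islet1Cre cKO, and 7727, 10692 and 9244 in Dlx5/6::Cre cKO. The Islet1Cre cKO libraries did not overlap the controls and those of Dlx5/6::Cre cKO did, with an averaged log2 fold change of 0.23 (SE 0.098, adjusted p = 0.356). The ratio of Gad1 to Gad2 in TPM was 0.963 ± 0.033 in controls, 0.986 ± 0.038 in Islet1Cre cKO and 1.02 ± 0.18 in Dlx5/6::Cre cKO (SD, n = 3). A two-sided exact permutation test gave p = 0.7 for each cKO genotype against control. With 3 against 3 it cannot fall below 0.1, so it cannot show that the ratio was unchanged.

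The vesicular carrier Slc32a1 had normalized counts of 4885, 6684 and 5922 in controls, 6272, 5515 and 6087 in Islet1Cre cKO, and 5742, 6376 and 6347 in Dlx5/6::Cre cKO. The groups overlapped throughout, and the averaged log2 fold change was 0.053 with a 95% interval of -0.15 to 0.26. Of the windows of 75 bases in its transcripts, 23.0% also occur in the overlapping gene Gm14205, and reads on such windows may have been left uncounted. Slc6a11 (GAT3), which takes up GABA mainly into astrocytes, was counted 1926, 1707 and 1721 times in controls, 1579, 1557 and 2046 times in Islet1Cre cKO, and 2171, 2318 and 1968 times in Dlx5/6::Cre cKO. Dlx5/6::Cre cKO libraries lay above every control, by 0.27 on the log2 scale (SE 0.11, adjusted p = 0.290), while those of Islet1Cre cKO overlapped. Slc6a11 was also the member of lowest unadjusted p between the cKO genotypes, 0.32 higher in Dlx5/6::Cre cKO (95% interval 0.068 to 0.58, adjusted p = 0.868), where 5.16% of all genes passed an unadjusted 0.05. Markers of radial glia and astrocytes summed to 1120 to 1272 TPM in controls, 1037 to 1321 in Islet1Cre cKO and 1109 to 1867 in Dlx5/6::Cre cKO, and their part in the Slc6a11 values was not tested.

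Of the breakdown enzymes, Aldh5a1 oxidizes succinic semialdehyde, the product of the GABA transaminase Abat. Normalized counts of Aldh5a1 were 1317, 1632 and 1406 in controls, 1687, 1844 and 1792 in Islet1Cre cKO, and 1505, 2109 and 2120 in Dlx5/6::Cre cKO. Islet1Cre cKO libraries lay above the controls, and Dlx5/6::Cre cKO replicate 1 fell among them. The averaged log2 fold change was 0.34 (SE 0.11, adjusted p = 0.199), and without Dlx5/6::Cre cKO replicate 1 it was 0.41 (adjusted p = 0.0123) and without Control replicate 1 it was 0.28 (adjusted p = 0.610). Of the 75-base windows of Aldh5a1, 11.8% also occur in other genes, among them the overlapping gene 4932702P03Rik. Abat overlapped between the groups, with a log2 fold change of 0.12 in Islet1Cre cKO and 0.17 in Dlx5/6::Cre cKO.

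GABA-A receptors are built from 2 alpha, 2 beta and usually 1 gamma or delta subunit, and the alpha and gamma subunits set where a receptor sits and how it responds. Gabrg3, a gamma subunit gene on chr7:56716465-57387188 (minus strand), had normalized counts of 439, 465 and 597 in controls. The counts were 824, 874 and 653 in Islet1Cre cKO and 655, 901 and 904 in Dlx5/6::Cre cKO. The 6 cKO libraries were all above the highest control, although Islet1Cre cKO replicate 3 and Dlx5/6::Cre cKO replicate 1 came close to it. Gabrg3 rose 1.60-fold on average (log2 fold change 0.68, SE 0.15, 95% interval 0.36 to 1.01, adjusted p = 0.0362, edgeR). In Islet1Cre cKO alone the log2 fold change was 0.65 (adjusted p = 0.133) and in Dlx5/6::Cre cKO alone 0.71 (adjusted p = 0.0529), and the difference between them was 0.065 with a 95% interval of -0.30 to 0.43. The call was lost in 6 of the 9 fits that left out 1 library, with adjusted p from 0.0698 (without Dlx5/6::Cre cKO replicate 2) to 0.199 (without Control replicate 1), and was kept at 0.00473 without Dlx5/6::Cre cKO replicate 1. Within embryo codes, the log2 ratio of means was 0.79 for Islet1Cre cKO over the 2 IE controls and 0.46 for Dlx5/6::Cre cKO over the D control, and with the code letters as a covariate the averaged adjusted p was 0.0666. Without both libraries that held Xist and Y-linked reads it was 0.88 on the log2 scale (adjusted p = 0.0430).

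Gabra3, an alpha subunit gene prominent in the immature forebrain, showed a similar order of libraries. It lies on the X chromosome, and the part of embryo sex in its values was not tested. Its normalized counts were 507, 763 and 779 in controls, 1246, 1261 and 854 in Islet1Cre cKO, and 896, 1548 and 1451 in Dlx5/6::Cre cKO. No cKO library reached down to the controls, yet edgeR did not call it, with a log2 fold change of 0.72 in Islet1Cre cKO (adjusted p = 0.290), 0.93 in Dlx5/6::Cre cKO (adjusted p = 0.0701) and 0.82 on average (SE 0.20, adjusted p = 0.0665). DESeq2 called it in Dlx5/6::Cre cKO (adjusted p = 0.00195) and on average (adjusted p = 0.00151). By edgeR the averaged value was 0.93 without Dlx5/6::Cre cKO replicate 1 (adjusted p = 0.00630) and 0.65 without Control replicate 1 (adjusted p = 0.307). Gabrg1, the other gamma subunit among the members, had 137, 286 and 149 normalized counts in controls, 409, 396 and 297 in Islet1Cre cKO, and 161, 738 and 435 in Dlx5/6::Cre cKO. Dlx5/6::Cre cKO replicate 1 lay at the control level and the others above, and the averaged log2 fold change of 1.08 had an SE of 0.41 (adjusted p = 0.273). Without that library it was 1.28 (adjusted p = 0.0155), without Control replicate 1 it was 0.89 (adjusted p = 0.711), and without Dlx5/6::Cre cKO replicate 2, the highest library, it was 0.80 (adjusted p = 0.369).

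Gabrq, which codes for the theta subunit of hypothalamic and monoaminergic neurons, was low, with 42, 51 and 40 normalized counts in controls, 60, 71 and 70 in Islet1Cre cKO, and 55, 72 and 81 in Dlx5/6::Cre cKO. Its cKO libraries did not overlap the controls, and the averaged log2 fold change was 0.62 (SE 0.20, adjusted p = 0.179). Gabrq is on the X chromosome too, and the part of embryo sex was not tested. Gabrd, the delta subunit of receptors outside synapses, had values below control. It had 261, 225 and 237 normalized counts in controls, 188, 165 and 217 in Islet1Cre cKO, and 98.2, 154 and 169 in Dlx5/6::Cre cKO. All cKO libraries were below the controls, with a log2 fold change of -0.35 in Islet1Cre cKO (adjusted p = 0.843), -0.78 in Dlx5/6::Cre cKO (adjusted p = 0.0951) and -0.56 on average (adjusted p = 0.165). Without Dlx5/6::Cre cKO replicate 1, the lowest library, the value in Dlx5/6::Cre cKO was -0.58 (adjusted p = 0.0847), and without Control replicate 1 it was -0.71 (adjusted p = 0.284). DESeq2 called it in Dlx5/6::Cre cKO with all libraries (adjusted p = 0.00951).

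**Figure D4:**
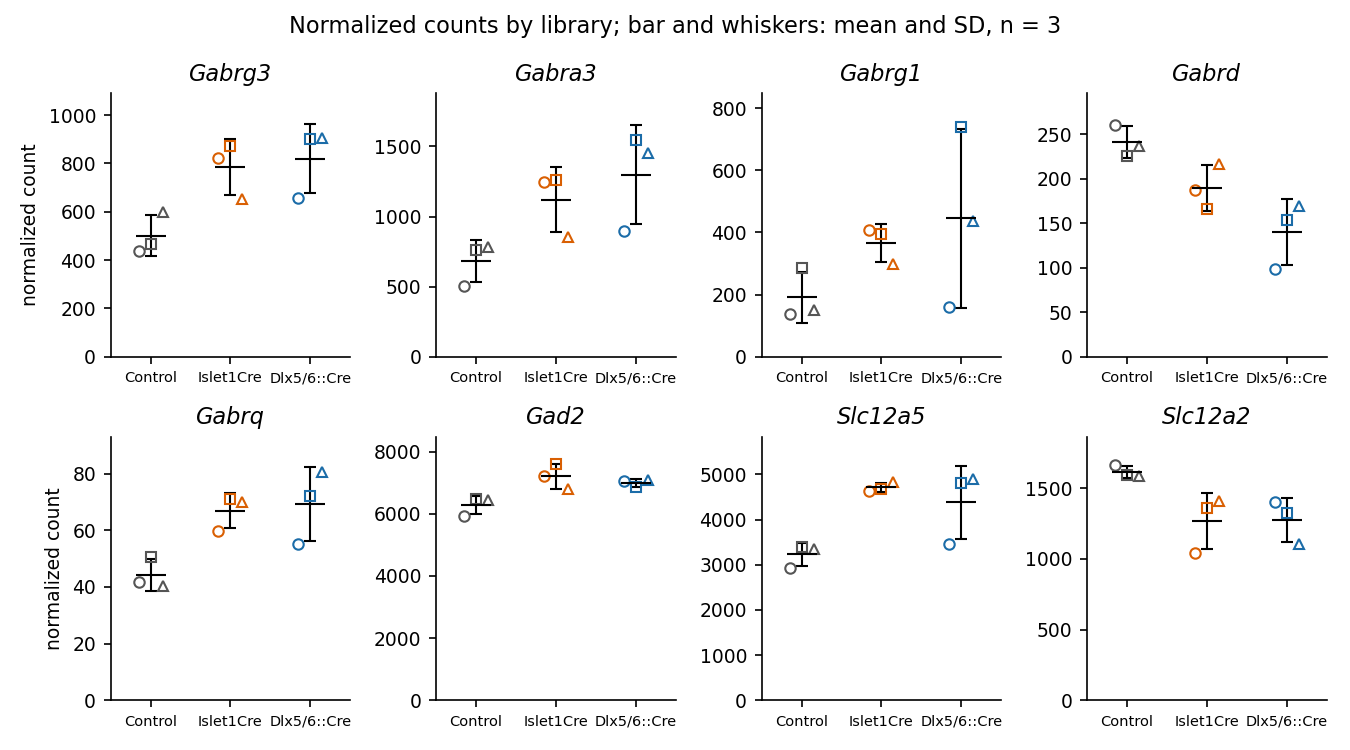
Normalized counts (y axis, from 0) of 8 members in each library by genotype, with circles, squares and triangles for replicates 1, 2 and 3 and bars for the mean and SD of 3 embryos. For Gabrg3, Gabra3, Gabrq, Gad2 and Slc12a5 every cKO library is above the controls, for Gabrd and Slc12a2 every one is below, and for Gabrg1 Dlx5/6::Cre cKO replicate 1 (161) falls among the controls.

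The other alpha and the beta subunits overlapped more. Gabra2, an alpha subunit of striatal and forebrain synapses, had 1021, 1338 and 903 normalized counts in controls, 1896, 1288 and 1598 in Islet1Cre cKO, and 913, 1400 and 1468 in Dlx5/6::Cre cKO. The groups overlapped, with a log2 fold change of 0.55 in Islet1Cre cKO (adjusted p = 0.432) and 0.21 in Dlx5/6::Cre cKO (adjusted p = 0.655). Gabra4, Gabra5, Gabrb1 and Gabrb2 ranged from -0.17 (Gabra5 in Dlx5/6::Cre cKO) to 0.40 (Gabrb2 in Islet1Cre cKO) on the log2 scale, with unadjusted p above 0.05 in both comparisons. Gabrb2 and Gabra6 lie 1.988 and 2.296 Mb from Ebf1 on chromosome 11, close to the targeted locus. Gabrb2 had normalized counts of 849 to 1576 in controls, 1620 to 1718 in Islet1Cre cKO and 922 to 1794 in Dlx5/6::Cre cKO. The Islet1Cre cKO libraries lay above the controls and those of Dlx5/6::Cre cKO overlapped them, and the part of linkage was not tested.

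Within a library, the share of each alpha subunit gene does not depend on scaling between libraries. Of the summed TPM of the 5 alpha genes listed, Gabra5 made up 72.2 ± 2.75% in controls, 66.2 ± 3.47% in Islet1Cre cKO and 60.4 ± 4.03% in Dlx5/6::Cre cKO (SD, n = 3). The Gabra3 share was 10.8, 11.1 and 14.2% in controls, 17.1, 20.3 and 12.2% in Islet1Cre cKO, and 24.3, 21.4 and 20.9% in Dlx5/6::Cre cKO. The Dlx5/6::Cre cKO libraries thus lay above all other libraries for Gabra3, and Islet1Cre cKO replicate 3 lay among the controls. Dlx5/6::Cre cKO replicate 1, low in its group for Gabra3 counts, was the highest of its group for the Gabra3 share. Its Gabra5 level was 56.7 TPM, against 127 and 116 TPM in replicates 2 and 3 and 95.9 to 138 TPM in controls. The Gabra5 share was 55.8, 63.0 and 62.4% in replicates 1 to 3 of Dlx5/6::Cre cKO, and 69.0 to 73.9% in controls. Gabra2 and Gabra4 shares were 9.88 and 5.86% in controls and stayed at 11.2 to 11.9% and 5.40 to 6.21% in the cKO means. These shares were not tested, and they leave out alpha genes that are not among the members.

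GABA-B receptors pair Gabbr1, which binds GABA, with Gabbr2, which couples to the G protein. Gabbr1 had a log2 fold change of 0.057 in Islet1Cre cKO and 0.091 in Dlx5/6::Cre cKO, and Gabbr2 0.14 and 0.19, with overlapping groups. The ratio of Gabbr1 to Gabbr2 in TPM was 8.53 ± 0.27 in controls, 8.07 ± 0.69 in Islet1Cre cKO and 7.998 ± 0.416 in Dlx5/6::Cre cKO (two-sided exact permutation test, p = 0.4 and p = 0.2, n = 3 each). Gphn, the scaffold that anchors GABA-A and glycine receptors, had 4995, 4425 and 3818 normalized counts in controls, 5027, 3786 and 4494 in Islet1Cre cKO, and 4224, 4643 and 5631 in Dlx5/6::Cre cKO. The groups overlapped, and the 95% interval of the averaged log2 fold change was -0.20 to 0.33.

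The glycine receptor genes were led by Glra2, the fetal alpha subunit, at 55.5 TPM in controls, and by Glrb, the beta subunit that binds gephyrin, at 18.2 TPM. Glra2 had a log2 fold change of 0.18 in Islet1Cre cKO and 0.27 in Dlx5/6::Cre cKO, and Glrb 0.14 and 0.21, with overlapping groups. Glra3 had 0.904, 20.4 and 1.92 normalized counts in controls, and its interval in Islet1Cre cKO ran from -1.09 to 2.78.

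Of the chloride transporters, Slc12a5 had values above control and Slc12a2 below control in every cKO library. Slc12a5, on chr2:164960802-164999731 (plus strand), had normalized counts of 2936, 3394 and 3351 in controls. It had 4641, 4684 and 4825 in Islet1Cre cKO and 3458, 4801 and 4894 in Dlx5/6::Cre cKO. All cKO libraries were above the controls, Dlx5/6::Cre cKO replicate 1 by the smallest margin. Slc12a5 rose 1.41-fold on average (log2 fold change 0.49, SE 0.11, 95% interval 0.26 to 0.73, adjusted p = 0.0350, edgeR). In Islet1Cre cKO the log2 fold change was 0.54 (adjusted p = 0.0758), in Dlx5/6::Cre cKO it was 0.44 (adjusted p = 0.0958), and they differed by -0.10 (95% interval -0.37 to 0.16). The averaged call was lost in 8 of the 9 fits that left out 1 library, with adjusted p from 0.0649 (without Dlx5/6::Cre cKO replicate 2) to 0.191 (without Control replicate 1), and was kept at 0.000671 without Dlx5/6::Cre cKO replicate 1. Over the same fits the log2 fold change ran from 0.43 to 0.57. Within embryo codes the log2 ratio was 0.58 for IE and 0.39 for D, and with the code letters as a covariate the adjusted p was 0.0857. Without both libraries that held Xist and Y-linked reads the log2 fold change was 0.51 (adjusted p = 0.224).

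Slc12a2, which brings chloride into immature neurons and into progenitors, had 1663, 1595 and 1587 normalized counts in controls, 1045, 1358 and 1409 in Islet1Cre cKO, and 1406, 1325 and 1104 in Dlx5/6::Cre cKO. No cKO library reached the controls, which lay within 1.05 times of each other. The log2 fold change was -0.35 in Islet1Cre cKO (adjusted p = 0.381), -0.34 in Dlx5/6::Cre cKO (adjusted p = 0.217) and -0.34 on average (SE 0.11, adjusted p = 0.153), so that it was not called. The ratio of Slc12a5 to Slc12a2 in TPM was 2.59, 3.12 and 3.10 in controls, 6.51, 5.06 and 5.02 in Islet1Cre cKO, and 3.61, 5.31 and 6.50 in Dlx5/6::Cre cKO. Every cKO library was above every control, as the separation of each gene already requires, and the lowest was again Dlx5/6::Cre cKO replicate 1. The permutation p of this ratio was fixed by the same separation. The mean log2 ratio was higher by 0.91 in Islet1Cre cKO and by 0.77 in Dlx5/6::Cre cKO (two-sided exact permutation test, p = 0.1 in each, the smallest that 3 against 3 allows, 0.3 after adjustment over 6 ratio tests). Slc12a2 is expressed in dividing cells too, and progenitor markers summed to 73.4 to 91.7 TPM in controls, 86.4 to 105 TPM in Islet1Cre cKO and, without replicate 1, 75.2 and 77.8 TPM in Dlx5/6::Cre cKO, and their part in the ratio was not tested.

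**Figure D5:**
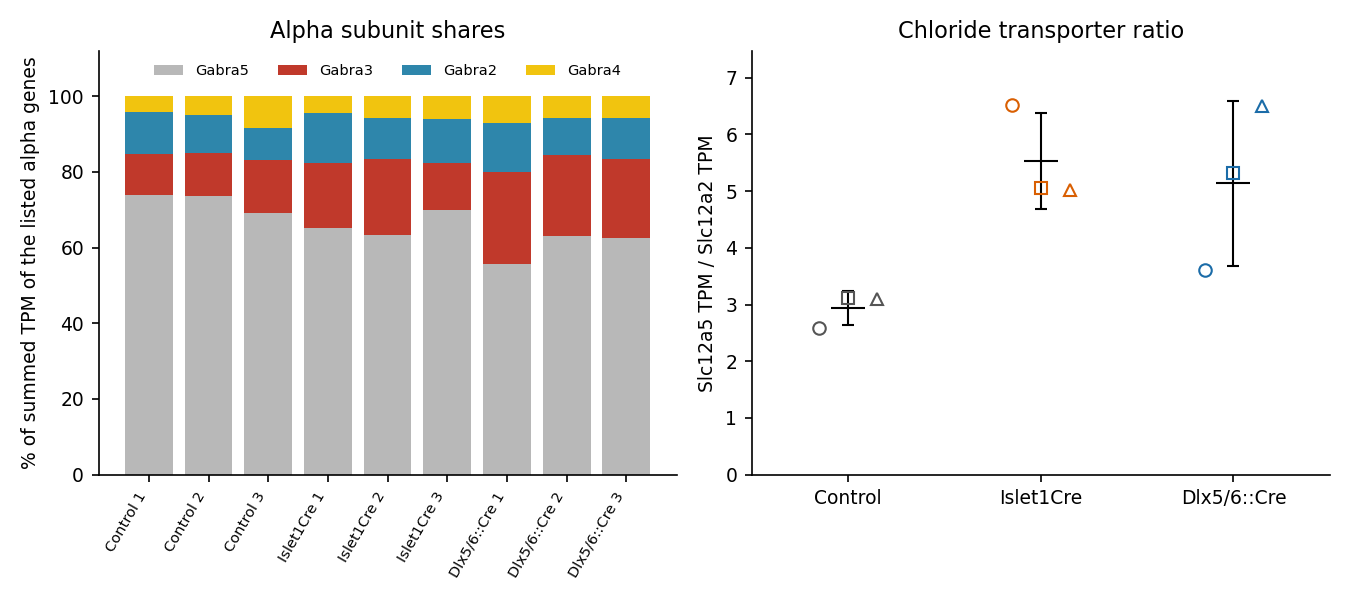
Left, percent of the summed TPM of the listed alpha subunit genes taken by Gabra5, Gabra3, Gabra2 and Gabra4 in each library (y axis). Right, ratio of Slc12a5 to Slc12a2 TPM by genotype, with each embryo as a symbol (circle, square and triangle for replicates 1, 2 and 3) and the mean and SD of 3. Gabra3 takes 20.9 to 24.3% in Dlx5/6::Cre cKO against 10.8 to 14.2% in controls, and the ratio lies between 3.61 and 6.51 in the cKO libraries against 2.59 to 3.12 in controls.

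A wider list of 27 genes that support these receptors was followed for comparison, among them receptor trafficking and scaffold genes (Gabarap, Nlgn2), GABA-B auxiliary subunits, glycine transporters, glutamine supply (Glul, Slc38a1) and kinases of chloride transport (Stk39, Wnk3). Of these, 23 were tested and edgeR called none in any of the 4 comparisons. Of all genes it called 0.971% in Islet1Cre cKO, 2.39% in Dlx5/6::Cre cKO, 0.0% between the cKO genotypes and 2.76% on average. At such shares no call is expected among so few genes, and the list sets no contrast with the members. On average 2 passed an unadjusted p of 0.05, 1 higher and 1 lower, against 12.8% of all genes. The nearest to a call was Kctd12, an auxiliary subunit that speeds desensitization of GABA-B receptors, with an averaged log2 fold change of 0.68 (SE 0.16, adjusted p = 0.0516) and overlapping libraries. The median of the list was -0.036 on the log2 scale in Islet1Cre cKO and -0.0025 in Dlx5/6::Cre cKO, close to that of all genes.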

How the data were processed

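Libraries were made with a stranded poly(A) kit from 400 ng of RNA of each of 9 embryos. The authors deposited raw counts per Ensembl gene. According to the methods of the study and the submitters' processing notes, they mapped reads to mm10 with STAR 2.4.0k, removed reads matching more than 1 position, and counted on Ensembl 81 genes with HTSeq 0.5.3. The strand setting of the counting is not given in the sources used here, so reads of overlapping antisense genes (such as Gad1os at Gad1) may not be told apart. Genes with near-identical copies lose reads.

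From the counts, genotypes and replicate numbers were taken from sample titles. All 9 libraries entered 1 fit with edgeR 4.0.16 (R 4.3.3), with filterByExpr at a minimum count of 10, TMM scaling, the quasi-likelihood test and Benjamini-Hochberg adjustment. Standard errors are the log2 fold change over the square root of F. Normalized counts are counts over DESeq2 1.42.0 size factors, and TPM uses exon lengths of GENCODE M21, which holds 44048 of the 44886 genes. The 3 ratios were compared by exact permutation tests. The edgeR step was tested on simulated counts, with changes larger than those of most members. The simulation held no outlying library and no code groups, so it does not measure power for these data. Total counts of 16.5 to 41.5 M set the precision. With 3 embryos per group as labelled, p-values of edgeR weigh a difference against the spread between libraries. That spread is estimated over all genotypes in 1 fit, with information shared across genes. No libraries agreed within sampling noise (chi-square per degree of freedom at least 10.8).

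Members and lists were chosen with earlier results of these data known. Named with full values were members called, those at an unadjusted p below 0.05, and Gad1, Gad2, Slc32a1, Slc12a2, Slc12a5 and Gphn. Those within 10 Mb of Ebf1 were pointed out. Alternatives were DESeq2's Wald test, DESeq2 size factors, no filter, a minimum count of 50, only the groups compared, a replicate block, embryo code letters as a covariate, and each library left out. Chosen after seeing the data were leaving out both libraries with Xist and Y-linked reads, and keeping IE codes only.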

Additional observations from a re-analysis of the deposited data

How the results depend on the processing

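The 27 pairs of a member and a comparison with an unadjusted p below 0.05 kept their sign under every alternative run. These pairs were picked by p in the same data, which favours a stable sign. Outside them, Gphn changed sign in 7 of 18 alternatives in Islet1Cre cKO and in 1 of 17 in Dlx5/6::Cre cKO. Slc32a1 did so in 2 of 18 and 1 of 17. Gad1 kept its sign in each cKO genotype against control, but changed it in 13 of 17 alternatives between the cKO genotypes. The number of members called in Islet1Cre cKO went from 0 to 2 with DESeq2, 3 with no filter on low counts, 1 with only the groups compared, 1 with the replicate block and 2 with IE codes only, and over the fits without 1 library from 0 to 2. In Dlx5/6::Cre cKO it was 4 with DESeq2 and 4 with no filter, and 0 to 5 without 1 library, the 5 without Dlx5/6::Cre cKO replicate 1 being Aldh5a1, Gabra3, Gabrg1, Gabrg3 and Slc12a5. Between the cKO genotypes it stayed at 0. For the averaged comparison, 2 members became 3 with DESeq2 and 3 with no filter (Gabra3 added in each), 1 with the replicate block (Slc12a5), 0 with the code letters as a covariate, 1 without both libraries with Xist and Y-linked reads (Gabrg3, with Slc12a5 at an adjusted p of 0.224), and 0 to 5 without 1 library.

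Counts over all genes moved as well. For Islet1Cre cKO 159 genes became 395 with DESeq2, 311 with no filter, 259 with only the groups compared, 61 with the code letters, 52 without both Xist and Y-linked libraries and 15 to 397 without 1 library. For Dlx5/6::Cre cKO the count became 860, 708, 181, 32, 138 and 143 to 613 in the same order. Between the cKO genotypes 0 became 18, 13, 2, 1, 3 and 0 to 4. On average 452 became 776 with DESeq2, 278 with the code letters, 170 without both Xist and Y-linked libraries and 178 to 775 without 1 library. The cause of these shifts was not tested.

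The replicate numbers shared between genotypes did not pair the embryos. The mean correlation of deviations was -0.02 for same-numbered and 0.01 for other pairs, and 4 of the 9 libraries correlated best with their own number. The replicate block left 143 genes called in Islet1Cre cKO, 363 in Dlx5/6::Cre cKO and 367 on average, and Gabrg3 had an adjusted p of 0.0515.

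The difference in log2 ratio of Slc12a5 to Slc12a2 ran from 0.79 to 0.97 in Islet1Cre cKO and from 0.58 to 1.01 in Dlx5/6::Cre cKO without 1 library. That of Gad1 to Gad2 in Dlx5/6::Cre cKO, 0.063, ran from -0.065 (without Dlx5/6::Cre cKO replicate 2) to 0.19. Low counts limit Slc6a13, Glra1 and Gabra6, for which differences were not detectable at this depth. Gabre and Glra3 were tested at low counts and also varied widely between controls.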
